A study of Rattus norvegicus with 9 samples.

Results

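Tap1, Psmb8, Psmb9 and B2m, 4 genes of the immunoproteasome and of class I antigen processing, were followed in HBZY-1, an established rat line of mesangial cells, which support the capillaries of the glomerulus. They were chosen by their Ensembl identifiers, which are ENSRNOG00000000457 for Tap1, ENSRNOG00000000456 for Psmb8, ENSRNOG00000000459 for Psmb9 and ENSRNOG00000017123 for B2m, out of 30560 genes in the deposited table. All 4 identifiers were present, and all 4 passed the filter (a 9-library mean of 1 TPM or more), as did 12192 genes in all. The gene names are those given with the list of identifiers. The reference table supplied here carries no Ensembl identifier for any of its 47357 rat genes, so the pairing of names with identifiers was not checked.

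The extract group was given a high dose of an aqueous extract made from lyophilized powder of the leech Poecilobdella manillensis. The LPS group is the inflammatory model, made with lipopolysaccharide, a component of the outer membrane of Gram-negative bacteria. The remaining group is labelled control. Each group has 3 libraries, described by the series as biological replicates, of the same cell line. The labels give neither dose nor exposure time, and do not say whether the extract group also received LPS or whether the controls had a vehicle. Whether the replicates were cultured on separate days is not stated. The p-values set differences between groups against the spread between these libraries, whatever its source. The cell type was not checked against marker genes, since the identifiers are not paired with names in the sources used here.

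Class I molecules display peptides from a cell's own proteins to cytotoxic T cells. The peptides come from the proteasome, in which the inducible catalytic subunits encoded by Psmb8 and Psmb9 take the place of their constitutive counterparts to form the immunoproteasome. The TAP transporter, a heterodimer of the Tap1 and Tap2 products, then carries peptides into the endoplasmic reticulum, where they bind class I heavy chains paired with the invariant light chain that B2m encodes. In mammals Tap1, Psmb8 and Psmb9 lie close together in the major histocompatibility complex, and the pathway is known to be induced by interferons and, for several of its genes, by NF-kappaB signalling.

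The regions before the annotated starts of the 4 genes are shown because 3 of the genes are close neighbours whose levels did not move alike. Sequences are from RefSeq, build GRCr8, matched by symbol for 4 of 4 genes, and each is written 5′ to 3′ on the strand of its gene; the deposited tables hold no coordinates and their build is not given in the sources used here. In this build the protein-coding genes run in the order Tap2, Psmb8, Tap1, Psmb9 on chromosome 20, and B2m lies on chromosome 3. Tap1 and Psmb9 point away from each other with 456 bases between their starts, and their windows of 250 bases before the start overlap by 44 bases. Capitals mark matches to the interferon-stimulated response element core GAAANNGAA, to the gamma-activated site TTCNNNGAA and to the kappaB consensus, searched on both strands of each window of 300 bases, 250 before the start and 50 after it.
Psmb8 (chr20:4657026-4657281, minus strand): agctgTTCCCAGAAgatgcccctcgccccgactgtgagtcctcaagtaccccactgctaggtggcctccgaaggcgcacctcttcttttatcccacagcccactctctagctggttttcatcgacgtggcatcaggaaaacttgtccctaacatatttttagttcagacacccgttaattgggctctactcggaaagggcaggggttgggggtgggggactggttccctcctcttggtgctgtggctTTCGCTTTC
Psmb9 (chr20:4668750-4668999, plus strand): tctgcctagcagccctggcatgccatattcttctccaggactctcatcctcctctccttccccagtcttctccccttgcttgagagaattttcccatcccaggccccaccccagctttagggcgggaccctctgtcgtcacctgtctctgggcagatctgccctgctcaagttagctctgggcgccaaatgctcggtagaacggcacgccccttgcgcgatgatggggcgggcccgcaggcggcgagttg
Tap1 (chr20:4668544-4668793, minus strand): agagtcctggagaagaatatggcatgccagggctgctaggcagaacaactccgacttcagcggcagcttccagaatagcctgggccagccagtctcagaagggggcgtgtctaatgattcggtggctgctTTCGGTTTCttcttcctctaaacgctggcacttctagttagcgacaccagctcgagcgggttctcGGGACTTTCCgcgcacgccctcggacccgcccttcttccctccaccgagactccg
B2m (chr3:129549080-129549329, plus strand): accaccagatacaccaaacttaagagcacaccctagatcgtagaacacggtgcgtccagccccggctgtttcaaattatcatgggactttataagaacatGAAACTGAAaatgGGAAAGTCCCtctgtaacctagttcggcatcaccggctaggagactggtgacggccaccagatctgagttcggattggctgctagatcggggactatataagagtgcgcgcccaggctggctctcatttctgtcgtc

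The Tap1 window held the interferon-stimulated core on its minus strand at -120 to -112 from the annotated start, and the kappaB consensus at -55 to -46. Both matches lie between the starts of Tap1 and Psmb9. B2m held the same pair of motifs, the core at -150 to -142 and the kappaB consensus at -137 to -128. In Psmb8 a match to the gamma-activated site lay at -245 to -237, and the interferon-stimulated core ran across the start, from -3 to 6, so that the printed window has 256 bases. None of the 3 motifs was found in the Psmb9 window of 300 bases, and no match overlapped another. Among 33469 rat promoter windows of 300 bases, 9.71% held the interferon-stimulated core, 8.87% the gamma-activated site and 4.18% the kappaB consensus. A match is a description of the letters and not a site of binding.

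Abundance was deposited as TPM, a transcript's share of all transcripts of a library after correction for length, scaled to a total of 1000000, so that levels can be compared between genes. TPM keeps no record of sequencing depth, which is unknown for these libraries. In bulk RNA, fewer expressing cells and less RNA per cell cannot be told apart. The number of genes above 0 TPM ranged from 15479 to 15837 per library. B2m was by far the most abundant of the 4 genes, at a mean of 1033 TPM over the 9 libraries, and ranked 144 of the 12192 tested genes. Psmb9 at 60.2 TPM, Psmb8 at 52.2 TPM and Tap1 at 39.4 TPM lay above 79.6%, 76.8% and 69.8% of the tested genes. All 4 genes were thus expressed in control cells too, at 1004 ± 39.2 TPM for B2m, 58.7 ± 3.16 TPM for Psmb8, 53.5 ± 3.995 TPM for Psmb9 and 44.5 ± 0.831 TPM for Tap1 (SD, n = 3). Within control cells the value ranges of Psmb8 and Psmb9 overlapped, those of Psmb9 and Tap1 did not.

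Psmb8, which encodes the chymotrypsin-like catalytic subunit of the immunoproteasome, was at 46.12, 52.29 and 44.99 TPM in the extract libraries, at 52.85, 51.69 and 46.02 TPM in the LPS libraries and at 56.22, 57.7 and 62.28 TPM in the control libraries. Every control library was above every extract and LPS library, while the extract and LPS values overlapped. Psmb9, which encodes the inducible subunit that replaces the caspase-like site, was at 63.95, 68.84 and 62.54 TPM in the extract libraries, at 62.87, 65.76 and 57.17 TPM in the LPS libraries and at 53.83, 49.35 and 57.32 TPM in the control libraries. The order of its group means was the opposite of that of Psmb8, though its extract and LPS values overlapped too. The extract values lay above all control values, and a single LPS library, replicate 3, fell below the highest control.

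Tap1, which encodes a subunit of the peptide transporter, was at 28.23, 29.11 and 27.63 TPM in the extract libraries, at 44.63, 45.38 and 45.83 TPM in the LPS libraries and at 44.63, 43.64 and 45.29 TPM in the control libraries. The extract libraries stood well below the other 6, which overlapped. B2m, which encodes the light chain of class I molecules, was at 1006.35, 1007.08 and 930.9 TPM in the extract libraries, at 1117.02, 1109.9 and 1112.35 TPM in the LPS libraries and at 1010.21, 962.44 and 1040.14 TPM in the control libraries. Here the LPS libraries stood above the other 6. How many of all tested genes separate groups as these 4 genes do was not computed. The spread between libraries of a group was small for Tap1, with a coefficient of variation of 1.34% to 2.63%. It was larger for Psmb8, at 5.38% to 8.22%, and Psmb9, at 5.08% to 7.47%. For B2m it differed between groups, at 0.325% in LPS, 3.9% in control and 4.46% in extract cells.

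**Figure D1:**
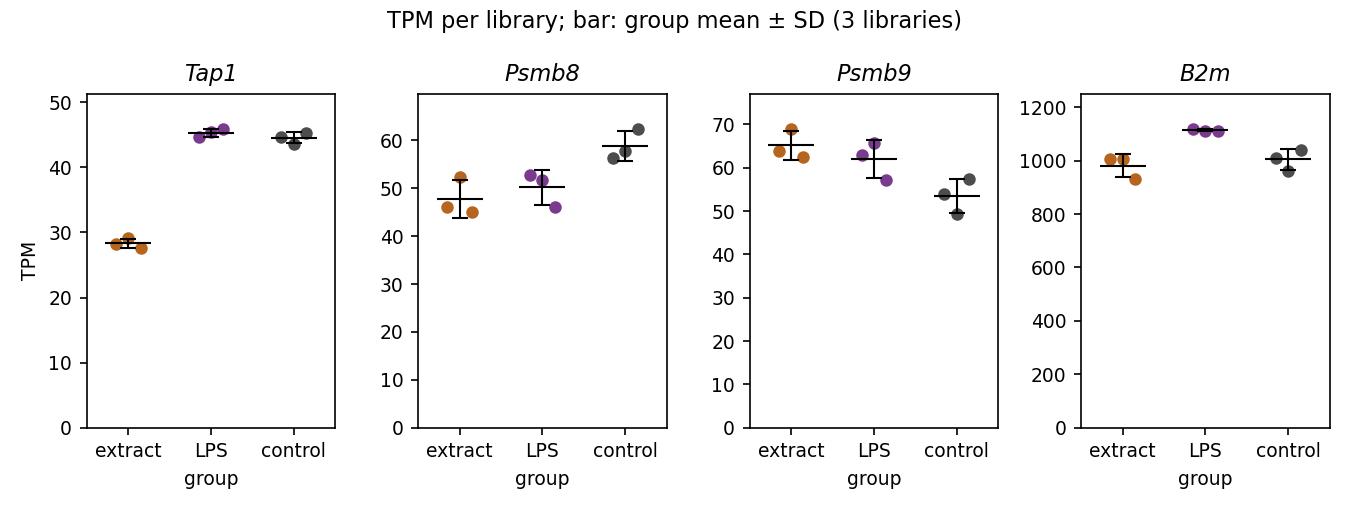
TPM of each gene (y axis, starting at 0) in the extract, LPS and control groups (x axis). Points are the 3 libraries of a group and bars the mean ± SD. The extract libraries of Tap1 lie between 27.63 and 29.11 TPM, below all others, and the LPS libraries of B2m between 1109.9 and 1117.02 TPM, above all others.

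LPS versus control sets the inflammatory model against control cells. B2m was 10.8% higher in LPS than in control cells and Psmb9 15.8% higher, as differences between the mean TPM of the groups. Psmb8 differed by -14.6% and Tap1 by 1.71%. None of these differences was large for this comparison: 34.9% of all tested genes had a larger change than Psmb8, 37.9% than Psmb9, 50.8% than B2m and 91.1% than Tap1. By limma with Benjamini-Hochberg adjustment over all tested genes, 3 of the 4 genes were called at an adjusted p below 0.05, 2 higher and 1 lower. Over all 12192 genes 40.7% were called, 9.79% higher and 30.9% lower, so a call is common in this comparison. That split depended on the scaling, with 17.4% higher and 18.6% lower after median-of-ratios scaling and 15.9% and 19.7% after quantile normalization. The median log2 difference was 0.086 over the 4 genes and -0.084 over all tested genes.

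On the log2(TPM + 1) scale, B2m rose by 0.149 ± 0.039 (SE; limma adjusted p = 0.0133). This call held under all 18 alternatives, with adjusted p from 0.00141 to 0.0426 and a difference of 0.119 to 0.244, the highest after median-of-ratios scaling. All of these fits took a single spread per gene for all groups, and none let the spread of B2m differ between groups. For Psmb9 the log2 difference was 0.208 ± 0.0675 (limma adjusted p = 0.0347). That call was lost with the replicate number as a block (limma adjusted p = 0.0622), without a mean-variance trend (0.0532), with no filter (0.0631) and in the fit of only the groups compared (0.0552). It was also lost without LPS replicate 1 (log2 difference 0.196, adjusted p = 0.0854), LPS replicate 2 (0.164, adjusted p = 0.118), control replicate 1 (0.213, adjusted p = 0.0724) or control replicate 2 (0.152, adjusted p = 0.108), by limma in each case. For Psmb8 the log2 difference was -0.224 ± 0.0709 (limma adjusted p = 0.0311). It was -0.131 after median-of-ratios scaling (limma adjusted p = 0.21) and -0.159 after quantile normalization (limma adjusted p = 0.124), and the call was also lost with no filter (limma adjusted p = 0.0581). Without LPS replicate 3 the Psmb8 difference was -0.164 (limma adjusted p = 0.0998), without control replicate 3 it was -0.182 (limma adjusted p = 0.104), and without control replicate 2 it was -0.236 (limma adjusted p = 0.0546).

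Tap1 did not pass the threshold in LPS versus control, with a log2 difference of 0.024 ± 0.0344, a 95% interval of -0.053 to 0.101 and a limma adjusted p of 0.615. After median-of-ratios scaling the same difference was 0.117 and passed (limma adjusted p = 0.0246). That scaling divides each library by a single factor, so it moves all well-expressed genes by nearly the same amount. The median log2 difference of all genes moved by 0.0859. After quantile normalization the difference was 0.0877 (limma adjusted p = 0.068). Leaving out a library gave 0.00996, without control replicate 2, to 0.0361, without control replicate 3, with 0.0154 without LPS replicate 3, and none of these passed.

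Extract versus LPS sets the extract group against the inflammatory model. Tap1 fell to 28.3 ± 0.744 TPM in extract cells, against 45.3 ± 0.606 TPM in LPS cells (SD, n = 3 each), a ratio of 0.626. B2m fell to 981.4 ± 43.8 TPM in extract cells, against 1113 ± 3.62 TPM in LPS cells, a difference of -11.8%. Neither immunoproteasome subunit passed the test, with 47.8 ± 3.93 TPM for Psmb8 in extract cells and 50.2 ± 3.66 TPM in LPS cells, and 65.1 ± 3.31 TPM for Psmb9 in extract cells and 61.9 ± 4.37 TPM in LPS cells. Thus 2 of the 4 genes were called, both lower, where 59.4% of all tested genes were called, 34.4% higher and 25% lower. The median log2 difference was -0.126 over the 4 genes and 0.039 over all tested genes.

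The log2 difference of Tap1 was -0.659 ± 0.0344 (SE; limma adjusted p = 3.63e-07), with a 95% interval of -0.736 to -0.581, and 13% of all tested genes changed by more. Under the 18 alternatives it lay between -0.706 and -0.594. For B2m the log2 difference was -0.182 ± 0.039 (limma adjusted p = 0.00277), within -0.233 to -0.145 under the alternatives, and 60.2% of genes changed by more. The interval for Psmb8 ran from -0.229 to 0.090 around -0.069 (limma adjusted p = 0.428). For Psmb9 it ran from -0.080 to 0.224 around 0.072 (limma adjusted p = 0.387). Both intervals include 0, which does not show that the levels were equal. The sizes of these 2 differences rested on single libraries and on the scaling. For Psmb8 the difference lay between -0.134, without extract replicate 2, and -0.0281, without extract replicate 3, with -0.0316 without LPS replicate 1, -0.129 without LPS replicate 3 and -0.0457 without extract replicate 1. It was -0.117 after median-of-ratios scaling and -0.12 after quantile normalization. For Psmb9 it lay between 0.0166, without LPS replicate 3, and 0.116, without LPS replicate 2, with 0.032 without extract replicate 2. It was 0.0245 after median-of-ratios scaling and 0.0186 after quantile normalization. Neither gene passed the test under any of the 18 alternatives.

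Extract versus control sets the extract group against control cells. Mean TPM in extract cells differed from that in control cells by -36.4% for Tap1, by -18.6% for Psmb8 and by 21.7% for Psmb9. B2m, at 981.4 ± 43.8 TPM in extract cells and 1004 ± 39.2 TPM in control cells, did not pass the test. Of the 4 genes 3 were called, 1 higher and 2 lower; of all tested genes 51.7% were called, 22.3% higher and 29.4% lower. The median log2 difference was -0.163 over the 4 genes and -0.041 over all tested genes.

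Tap1 fell by 0.635 ± 0.0344 on the log2 scale (SE; limma adjusted p = 6.85e-07), and 9.85% of genes changed by more. Psmb8 had a log2 difference of -0.293 ± 0.0709 (limma adjusted p = 0.00665) and Psmb9 of 0.280 ± 0.0675 (limma adjusted p = 0.00659). Extract and control values did not overlap for either gene. The share of all tested genes with such a separation was not computed. These 3 calls held under all 18 alternatives. Psmb8 lay between -0.358 and -0.248 under them, and Psmb9 between 0.224 and 0.330. For B2m the log2 difference was -0.033 ± 0.039, with a 95% interval of -0.121 to 0.054 (limma adjusted p = 0.507). Its direction depended on the scaling, at 0.0131 after median-of-ratios scaling (limma adjusted p = 0.81) and -0.108 after quantile normalization, where it passed (limma adjusted p = 0.0483), and on extract replicate 3, without which it was 0.0043 (limma adjusted p = 0.937). The 3 comparisons share libraries in pairs, so the values of one are not independent of those of another.

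**Figure D2:**
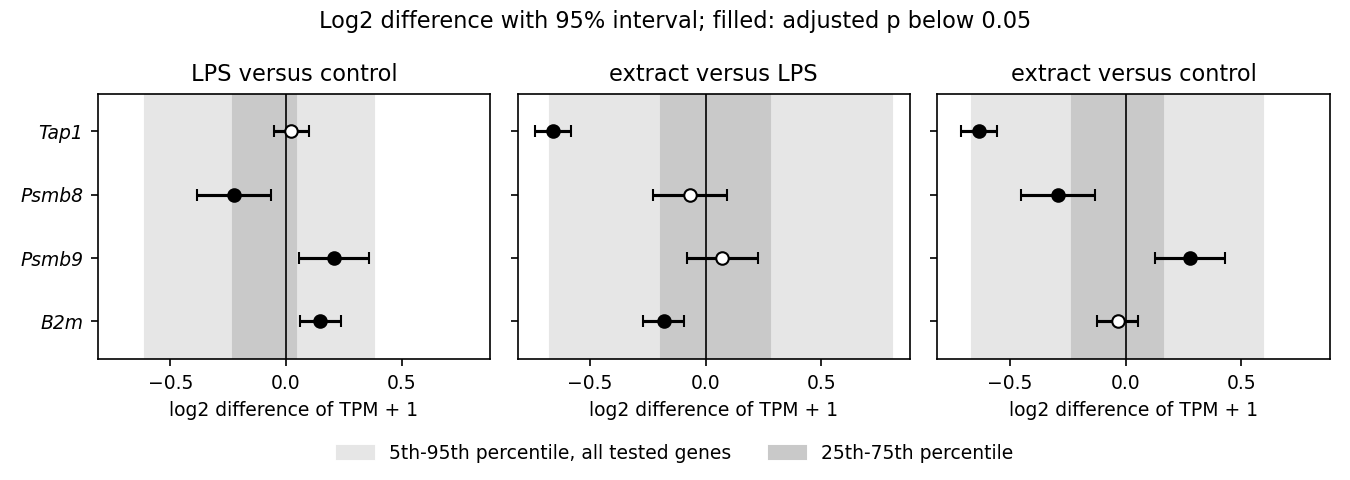
Log2 difference of TPM + 1 (x axis) of each gene (y axis) in the 3 comparisons, with its 95% interval; filled points passed an adjusted p of 0.05. The grey bands hold the central parts of the differences of all 12192 tested genes. Tap1 lies near 0 in LPS versus control and at -0.659 and -0.635 in the comparisons with the extract group, near the 5th percentile of all genes at -0.675 and -0.666.

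Ratios between the genes within a library do not change when that library is rescaled by a common factor. Quantile normalization is not such a rescaling, and the ratios were taken from the deposited TPM alone. They were compared for the 6 pairs of genes and 3 comparisons, 18 tests in all. Psmb8 over Psmb9, the ratio of the transcripts of the immunoproteasome subunits, was 0.721, 0.76 and 0.719 in the extract libraries, 0.841, 0.786 and 0.805 in the LPS libraries and 1.04, 1.17 and 1.09 in the control libraries. In all 3 control libraries Psmb8 had the higher TPM, and in all 6 others Psmb9 had. Biases of TPM between different genes were not checked. The 3 groups did not overlap. The mean log2 ratio was -0.448 ± 0.0443 in extract, -0.304 ± 0.0491 in LPS and 0.136 ± 0.0826 in control cells (SD, n = 3), which gives differences of -0.44 for LPS over control, -0.144 for extract over LPS and -0.584 for extract over control. Each had p = 0.1 in an exact permutation test, two-sided, which is the smallest p that 3 libraries against 3 allow, and an adjusted p of 0.12 over the 18 exact tests, so none could pass 0.05.

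Tap1 over Psmb9, the ratio of the pair with adjacent starts, was 0.441, 0.423 and 0.442 in the extract libraries, 0.71, 0.69 and 0.802 in the LPS libraries and 0.829, 0.884 and 0.79 in the control libraries. The extract libraries stood apart from both other groups, which overlapped. Its log2 difference was -0.751 for extract over LPS and -0.937 for extract over control (p = 0.1 in the exact permutation test for each), and -0.187 in LPS versus control (exact permutation p = 0.2). Tap1 over Psmb8 was 0.612, 0.557 and 0.614 in the extract libraries, 0.844, 0.878 and 0.996 in the LPS libraries and 0.794, 0.756 and 0.727 in the control libraries. The LPS libraries had the highest values of this ratio, and the groups did not overlap. Of the 18 tests, 15 reached the smallest p. The exceptions were Tap1 over Psmb9 and Psmb9 over B2m in LPS versus control and Psmb8 over B2m in extract versus LPS. How often the ratios of other gene pairs separate the groups was not computed. The count of 15 therefore does not set these genes apart from others.

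**Figure D3:**
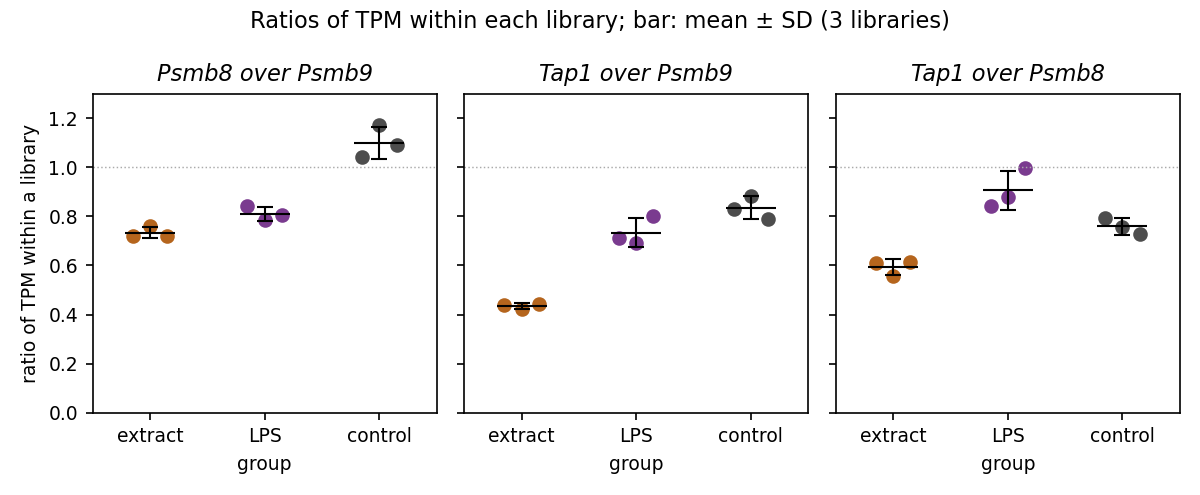
Ratio of the TPM of a pair of genes within each library (y axis) by group (x axis); points are libraries, bars the mean ± SD, and the dotted line marks equal TPM. Psmb8 over Psmb9 lies above 1 in the 3 control libraries and below 1 in the 6 others, and Tap1 over Psmb9 is at 0.442 or less in the extract libraries.

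The transcript table shows which transcripts carry these levels. To each of the 4 genes 2 transcripts were linked, because their TPM summed to that of the gene in all 9 libraries. A further transcript at 0 TPM in every library would not have been linked. A single transcript held nearly all of the gene's TPM: 99.4% to 100% for Tap1 (ENSRNOT00000000529), 96.5% to 100% for Psmb8 (ENSRNOT00000000528), 90.4% to 96.9% for Psmb9 (ENSRNOT00000000532), and all but at most 0.0367% for B2m (ENSRNOT00000023017). The minor Psmb9 transcript, ENSRNOT00000091362, was at 3.42, 2.1 and 2.01 TPM in the extract libraries, at 4.77, 3.06 and 4.88 TPM in the LPS libraries and at 3.76, 3.83 and 5.51 TPM in the control libraries. Its extract values lay below all control values, while those of the major transcript lay above them. It did not pass the test in extract versus control, with a log2 difference of -0.62 ± 0.215 (limma adjusted p = 0.0574), though it passed without extract replicate 1 (-0.798, limma adjusted p = 0.0282) or LPS replicate 2 (limma adjusted p = 0.0423). In extract versus LPS its log2 difference was -0.58 ± 0.215 (limma adjusted p = 0.0624), and it passed after median-of-ratios scaling (limma adjusted p = 0.0466), after quantile normalization (limma adjusted p = 0.0441) and without extract replicate 1 (-0.758, limma adjusted p = 0.0276) or LPS replicate 2 (-0.754, limma adjusted p = 0.0295). The minor Psmb8 transcript, ENSRNOT00000082047, was listed at 0 TPM in 4 libraries and between 1.59 and 1.7 TPM in the other 5, with both kinds of library in every group.

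At the level of transcripts, limma over 19383 of them gave the same calls for the major transcripts of Tap1, Psmb8 and B2m as for the genes. In LPS versus control the margins were narrow, with limma adjusted p = 0.0465 for Psmb8 and 0.0272 for B2m, and both calls were lost with the replicate block (limma adjusted p = 0.0718 for Psmb8 and 0.0602 for B2m), with no filter (0.0827 and 0.0687) and with no trend (0.0771 and 0.0887). The Psmb8 transcript also lost the call after median-of-ratios scaling (log2 difference -0.135, limma adjusted p = 0.273) and quantile normalization (-0.167, limma adjusted p = 0.165), and the B2m transcript after quantile normalization (0.0981, limma adjusted p = 0.196). The Psmb8 transcript also lost that call when any library other than extract replicate 2 was left out (log2 difference -0.269 to -0.161), and the B2m transcript when any LPS library, control replicate 1 or control replicate 2 was left out (0.119 to 0.154). The Psmb8 call in extract versus control was lost without extract replicate 1 (log2 difference -0.267), extract replicate 3 (-0.249) or control replicate 3 (-0.246). The major Psmb9 transcript was called in extract versus control, at 0.344 ± 0.0764 on the log2 scale (limma adjusted p = 0.00896), and not in LPS versus control, at 0.226 ± 0.0764 (limma adjusted p = 0.0672), where it passed after median-of-ratios scaling (0.321, limma adjusted p = 0.0295), after quantile normalization (0.29, limma adjusted p = 0.0397) and without LPS replicate 3 (0.293, limma adjusted p = 0.0281). Of all transcripts tested 23% were called for LPS over control, 39.1% for extract over LPS and 32% for extract over control.

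The profiles of the 4 genes over the 9 libraries were compared with those of all tested genes by the root mean square distance of log2(TPM + 1), each profile centred on its own mean. Among the 4, the closest pair was Psmb9 and B2m, at 0.148, and the farthest Tap1 and Psmb9, at 0.401. The distance also depends on how much each profile varies. The root mean square of the centred profile was 0.306 for Tap1, 0.149 for Psmb8, 0.142 for Psmb9 and 0.0891 for B2m. Psmb9 was thus about as far from B2m as from a flat profile, so their short distance does not show that they varied alike. Outside the list, ENSRNOG00000009754 was nearest to Tap1, at 0.0288, with 50.8 ± 0.892 TPM in extract, 82.0 ± 2.84 TPM in LPS and 80.4 ± 0.94 TPM in control cells (SD, n = 3). ENSRNOG00000017495 was nearest to B2m, at 0.0289, with 40.3 ± 1.46 TPM in extract, 44.4 ± 0.862 TPM in LPS and 40.6 ± 1.84 TPM in control cells. ENSRNOG00000003050 was nearest to Psmb8, at 0.0574, with 30.7 ± 1.09 TPM in extract, 32.6 ± 1.95 TPM in LPS and 36.5 ± 0.782 TPM in control cells. These identifiers carry no name in the sources used here.

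The dependence of each call on the processing and on single libraries is shown by the plot of adjusted p-values. The Tap1 differences that involve the extract group stayed furthest from the threshold.

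**Figure D4:**
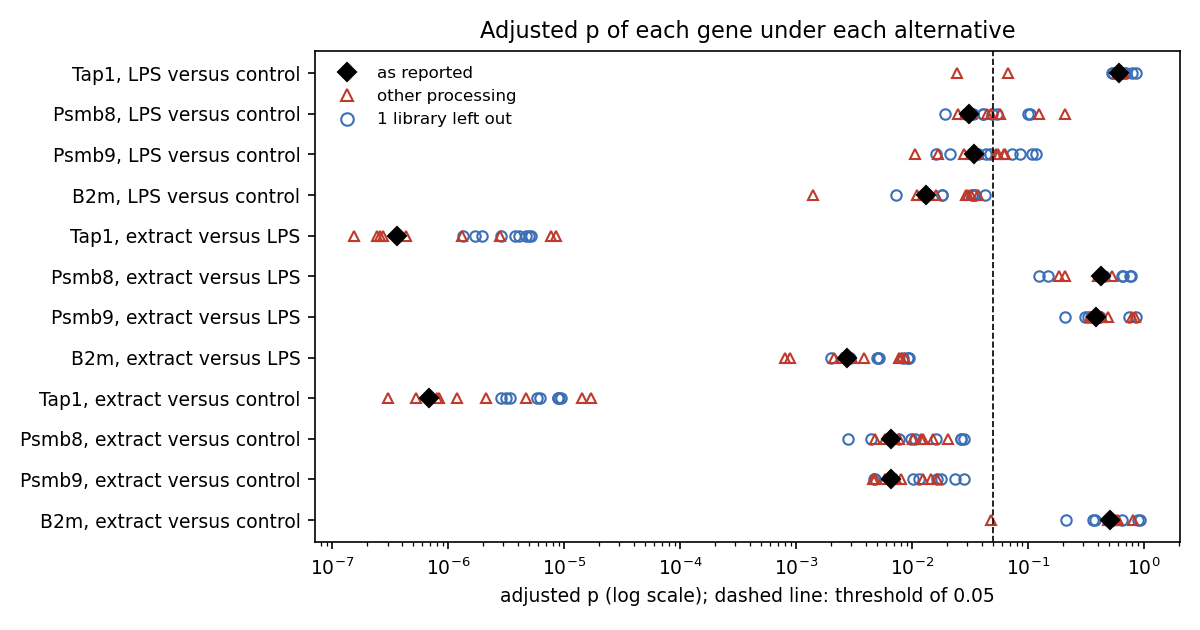
Adjusted p (x axis, log scale) of each gene in each comparison (y axis) as reported, under 9 other ways of processing and with 1 of the 9 libraries left out; the dashed line is the threshold of 0.05. The values for Psmb8 and Psmb9 in LPS versus control lie on both sides of the line, and those for Tap1 in both comparisons with the extract group lie at 1.72e-05 or below.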

How the data were processed

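RNA from 9 libraries of HBZY-1 cells was analysed, 3 each from extract, LPS and control cells. Gene and transcript TPM, rounded to 2 decimals, were deposited by the authors. Per the submitters' processing notes, the tools were fastp, HISAT2 2.1.0 and RSEM 1.3.3. The build, annotation and strandedness were not given in the sources used here. Every library sums to 1000000 TPM, so depth and counting error are unknown.

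Columns were matched to libraries through the codes in the titles. Values were taken as log2(TPM + 1), a scale that understates the change of low genes, for the 12192 genes that averaged 1 TPM or more. limma 3.58.1 in R 4.3.3 fitted group means across all genes and all 9 libraries (6 residual degrees of freedom, mean-variance trend, two-sided), with Benjamini-Hochberg adjustment over all tested genes and a threshold of 0.05. The procedure was tried on simulated data with known changes in a small share of genes. All of those changes were larger than the differences of Psmb8, Psmb9 and B2m here. The trial therefore does not cover differences of their size. Nor does it cover data in which many genes change, while 40.7% to 59.4% of all tested genes were called here. Transcripts were linked to a gene where consecutive rows summed to its TPM within 0.006 TPM per rounded value. Log2 ratios within libraries were compared by exact permutation.

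The genes, the lists and the tests were chosen with earlier results of these data known, and the ratios within libraries after the values were seen. A list of other pathway genes and the cell type markers were not analysed here, since the identifiers are not paired with names. The gene nearest in profile to each of the 4 was found by distance, and at most 2 identifiers higher and 2 lower with LPS were to be printed. The alternatives were 2 pseudocounts, 2 filters, 2 scalings, a replicate block, no trend, a fit of only the groups compared, and each library left out; those for ratios and transcripts were chosen after seeing the data. The replicate numbers are not stated to mark a shared day and were not taken to pair the libraries.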

Additional observations from a re-analysis of the deposited data

How the results depend on the processing

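Of 216 values, for 12 differences under 18 alternatives each, 198 kept the direction and the call, 14 lost the call, 2 gained it and 2 changed sign. The causes were not tested. The 2 filters, the replicate block, no trend and the fit of only the groups compared leave the log2 difference as it is. So does leaving out a library of the group not compared. Under these alternatives only the call could change. In LPS versus control, Psmb8 (-0.224) was not called with no filter (-0.224), median-of-ratios scaling (-0.131) or quantile normalization (-0.159). Leaving out a library gave -0.262 to -0.164. Psmb9 (0.208) was not called with no filter (0.208), the replicate block (0.208), no trend (0.208) or only the groups compared (0.208), and leaving out a library gave 0.152 to 0.263. Tap1 (0.024) was called after median-of-ratios scaling (0.117). In extract versus control, B2m (-0.033) was 0.0131 after median-of-ratios scaling and called after quantile normalization (-0.108), with -0.0636 to 0.00425 on leaving out a library. The counts of genes called stayed within 1.5 times, at 4054 to 4963 in LPS versus control, 6516 to 7256 in extract versus LPS and 5574 to 6334 in extract versus control. The replicate block ended no call among the 4 genes other than that of Psmb9 in LPS versus control (adjusted p = 0.0622, limma). Deviations of same-numbered libraries from their group means correlated, across genes, between -0.0554 and 0.0951, and those of libraries with unlike numbers, across groups, between -0.11 and 0.0894, so the data do not show a pairing by number. For the transcripts the same limit on direction applied, and 200 of 240 values kept direction and call. The B2m transcript ENSRNOT00000023017 changed sign in extract versus control after median-of-ratios scaling (0.0133) and without extract replicate 3 (a library left out gave -0.0635 to 0.00424), and the minor Psmb9 transcript in LPS versus control after median-of-ratios scaling (0.0374), quantile normalization (0.0599) and without LPS replicate 2 (0.134) or control replicate 3 (0.107; a library left out gave -0.134 to 0.134). All 108 ratio values with a library left out kept their sign. In 15 of the 18 ratio comparisons the groups did not overlap, so the sign could not change there. Of the 108 values, 6 moved by at least the SD of the group named first in the comparison. Without depth, how far reads limit the values of the minor transcripts is unknown.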
